A study of Mus musculus with 10 samples.

Results

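Of the Krüppel-like factor genes other than Klf2 and Klf4, 10 were compared between lungs with increased pulmonary flow (IPF) and sham lungs. They were taken by symbol from the gene table and are Klf3, Klf5, Klf6, Klf7, Klf9, Klf10, Klf11, Klf12, Klf13 and Klf15, 10 of the 54532 genes listed. Klf1, Klf8, Klf14, Klf16 and Klf17 are also listed but are not among the 10. All lungs came from wild-type C57BL/6J mice. The methods describe pups of both sexes. In the IPF group, the wall between the abdominal aorta and the inferior vena cava was punctured at P7, which makes an aortocaval fistula that sends more blood through the lungs. Sham mice had the same operation without the puncture, and whole lungs of both groups were collected at P30 for mRNA sequencing, 5 per group. Nothing in the labels says whether each library is one animal, so p-values measure the spread between these samples.

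Krüppel-like factors are transcription factors that bind GC-rich and CACCC sequences through a block of zinc fingers at their C-terminal end. Klf2 and Klf4 are the members known for induction by shear stress in endothelium. The others fall into subgroups by the proteins they recruit: Klf3 and Klf12 are repressors that bind CtBP, Klf9, Klf10, Klf11 and Klf13 bind the Sin3A corepressor, and Klf5, Klf6 and Klf7 mostly act as activators. Klf9 and Klf15 are well-known targets of the glucocorticoid receptor, and Klf10 and Klf11 were first described as genes induced early by TGF-β.

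The E-box CACGTG is the sequence bound by the clock factors Clock and Bmal1 (the product of Arntl). Promoters of 3 members are shown because they hold 3, 1 and 0 copies of it while all of these genes had lower values in most IPF lungs. The sequences are RefSeq's for GRCm38.p6, from 250 bases before to 50 bases after the annotated start, on the plus strand, with each E-box in capitals.

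Klf15, chr6:90462326-90462625: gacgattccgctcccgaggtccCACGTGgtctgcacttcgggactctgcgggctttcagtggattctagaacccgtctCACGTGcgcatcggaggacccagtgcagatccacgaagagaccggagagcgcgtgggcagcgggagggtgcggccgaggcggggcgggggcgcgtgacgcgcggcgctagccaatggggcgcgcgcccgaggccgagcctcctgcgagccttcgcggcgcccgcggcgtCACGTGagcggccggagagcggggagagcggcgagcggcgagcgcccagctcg

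Klf11, chr12:24651121-24651420: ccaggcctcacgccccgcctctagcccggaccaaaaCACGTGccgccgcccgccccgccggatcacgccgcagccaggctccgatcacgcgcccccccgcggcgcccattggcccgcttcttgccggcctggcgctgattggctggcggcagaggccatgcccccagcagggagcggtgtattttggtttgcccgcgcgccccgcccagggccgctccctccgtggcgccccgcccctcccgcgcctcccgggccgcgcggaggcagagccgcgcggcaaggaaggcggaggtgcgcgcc

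Klf9, chr19:23140976-23141275: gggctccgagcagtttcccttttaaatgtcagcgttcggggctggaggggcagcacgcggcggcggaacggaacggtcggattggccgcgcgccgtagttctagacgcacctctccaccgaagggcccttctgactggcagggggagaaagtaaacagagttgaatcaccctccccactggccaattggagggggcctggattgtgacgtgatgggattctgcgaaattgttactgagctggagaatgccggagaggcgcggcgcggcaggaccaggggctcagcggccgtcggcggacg

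The RefSeq table held promoters of 8 members. Those of Klf5 and Klf10 were not used here. The palindrome CACGTG was in 3 of the 8, with copies starting 228, 172 and 3 bases before the start of Klf15, 214 bases before that of Klf11 and 43 bases before that of Klf6. It was in 7.15% of all 32851 promoters of this length, and 0.594% held 2 or more copies. None of the 8 held the glucocorticoid receptor motif AGAACA on either strand, against 19.0% of all promoters. The GC box GGGCGG, on either strand, was in 6 of the 8, against 35.7% of all, and CACCC, likewise, was in 6 of the 8, against 57.5%. No E-box overlapped another of these motifs. A match describes the letters in this window and not a bound site.

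Each library held between 15483046 and 19026843 reads on genes, recovered from the deposited FPKM values. The 2 groups also differed in ways that the operation does not name. Xist, the RNA of the inactive X chromosome, stood at 26.8 to 43.2 FPKM in the 5 IPF libraries and at 0.0301 to 0.0767 in the 5 sham libraries. The Y-linked Ddx3y, Eif2s3y, Kdm5d and Uty were at 0 in every IPF library and present in every sham library. Of 18 genes of the circadian clock, 12 were called lower and 5 higher in IPF by the limma test described below, where 2.14% and 3.71% of all tested genes were. The labels give neither the sex of the mice nor the hour of collection, so flow, sex and the phase of the clock cannot be told apart in any comparison of these groups.

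Several libraries stood apart in their cell markers. The heart markers Myh6, Nppa and Myl7 summed to 82.6 FPKM in IPF replicate 4 and 70.5 in sham replicate 3, against 0.33 to 2.87 in the other 8. IPF replicate 3 had the highest sums of all libraries for smooth muscle (180 FPKM, against at most 138 in the other 9), fibroblast (310 against 276), ciliated (41.5 against 24.9) and secretory airway markers (27500 against 23000). IPF replicate 5 also stood apart in its Klf levels. For 5 of the 10 Klf genes (Klf7, Klf9, Klf11, Klf13 and Klf15) it held the highest IPF value, and its summed FPKM of the neutrophil markers S100a8, S100a9 and Retnlg was 279, against 11.1 to 67.2 in the other 9 libraries. Its summed fibroblast markers were below those of the other 9, at 187 against 218 to 310 FPKM, and it also lay just outside their range for ciliated (lower), endothelial and red cell markers (both higher). The part of these cells in the Klf values was not tested. Sham replicate 1 was the highest sham value for 5 of the 10 genes (Klf3, Klf7, Klf9, Klf12 and Klf13) and had 25486 genes above 0, where the other libraries had at most 23575. Markers of lung alveolar type 2 cells, Sftpc, Sftpb, Sftpa1 and Lamp3, were abundant in every library, with a summed FPKM of 12300 to 19800, and the tissue matched its label. In whole lung, fewer cells of a type and less RNA per cell cannot be told apart.

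Klf9, Klf13 and Klf15 were lower in IPF and Klf10 was higher, by 1.29-fold to 1.96-fold, and the other 6 Klf genes did not pass the test. Genes were tested with limma on log2(FPKM + 0.1) over the 20448 genes whose FPKM averaged 0.1 or more, and were called at a Benjamini-Hochberg adjusted p under 0.05. All 10 members passed this filter. Thus 3 of 10 were called lower, where 2.14% of all tested genes were, and 1 of 10 was called higher, where 3.71% were, or 4 of 10 in either direction against 5.85%. With limma, 6 of the 10 had an unadjusted p under 0.05, against 19.5% of all genes, and voom on the recovered reads called 4, against 7.22%. Under stricter limits, which add an absolute log2 fold change above 1, 0 members passed, against 0.46% of all genes lower and 0.68% higher. The groups did not overlap for 1 member, Klf10, against 7.29% of all genes in either direction, and 0 members lay wholly lower, against 2.77%. Without IPF replicate 5, limma called 4 members lower, against 3.26% of all genes, 1 higher, against 4.62%, and 2 lower past both limits, against 0.594%. In the other 9 single omissions fewer than 3 members were called lower: 0 without IPF replicate 2, 3 or 4 or sham replicate 1, 3 or 5, and 1 without IPF replicate 1 or sham replicate 2 or 4. The share of all genes called lower was 1.34% (without sham replicate 3) to 2.51% (without IPF replicate 3) in these 9 fits, and 5 members had an unadjusted p under 0.05 and a lower value in each. The log2 fold change was negative for 7 members and positive for 3, with a median of -0.21, and the median over all tested genes was 0.0.

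**Figure D1:**
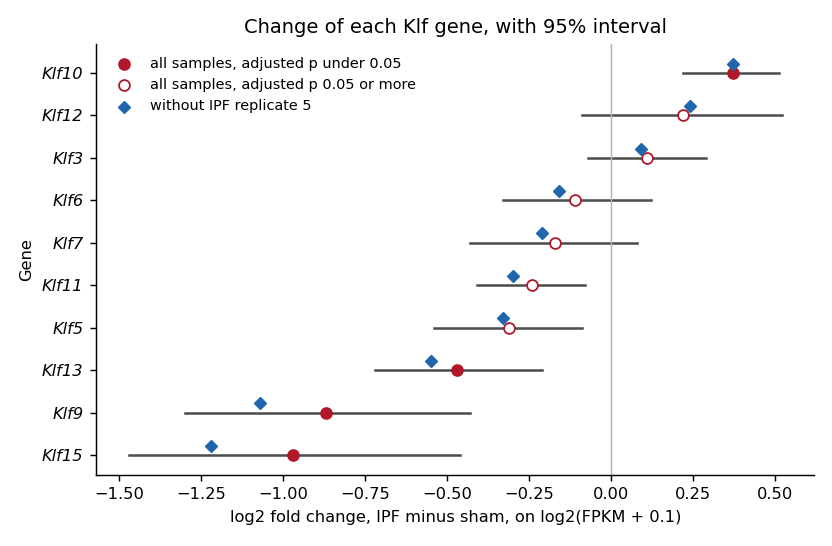
The log2 fold change (IPF minus sham, on log2(FPKM + 0.1)) of each of the 10 Klf genes in all 10 libraries is drawn as a circle with its 95% confidence interval, filled where the adjusted p was under 0.05, and the diamond gives the value without IPF replicate 5. Klf15 and Klf9 lie at -0.97 and -0.87 with every library and at -1.22 and -1.07 without IPF replicate 5, while Klf10 stays at 0.37.

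Klf9 (ENSMUSG00000033863, GRCm38 chromosome 19: 23141226 to 23166911, plus strand) is a Sin3A-binding factor induced by glucocorticoids and thyroid hormone. Its FPKM was 43.0, 31.5, 36.3, 41.6 and 75.5 in IPF replicates 1 to 5 and 97.1, 76.1, 80.9, 68.2 and 76.9 in sham replicates 1 to 5. The first 4 IPF lungs lay below every sham lung, and IPF replicate 5 lay among them. The means were 45.6 ± 17.3 and 79.8 ± 10.7 (SD, n = 5 per group), a log2 fold change of -0.87 (SE 0.20, adjusted p = 0.0266 in limma, exact two-sided permutation p = 0.0159). With IPF replicate 5 left out, the change was -1.07 (SE 0.12, limma adjusted p = 0.000462). With each library left out in turn the call held in 2 of 10 fits, without IPF replicate 5 and without sham replicate 4, with limma adjusted p from 0.000462 to 0.0658.

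Klf15 (ENSMUSG00000030087, chromosome 6: 90462576 to 90475238, plus strand) controls enzymes of amino acid breakdown and is another glucocorticoid target. The IPF values were 12.1, 11.2, 11.3, 12.2 and 28.6 FPKM, and the sham values were 29.6, 26.1, 32.6, 24.5 and 25.5. The first 4 IPF lungs were nearly equal and below all sham lungs, and IPF replicate 5 exceeded 3 of the 5 sham lungs. The mean was 15.1 ± 7.58 in IPF and 27.6 ± 3.38 in sham (SD, n = 5), which gave -0.97 on the log2 scale (SE 0.23, limma adjusted p = 0.0322, exact permutation p = 0.0317). Without IPF replicate 5 the change was -1.22 (SE 0.09, limma adjusted p = 2.8e-05), and that was the only one of the 10 single omissions in which Klf15 was called, the adjusted p reaching 0.0827 in the others.

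Klf13 (ENSMUSG00000052040, chromosome 7: 63886351 to 63938915, minus strand), a close relative of Klf9 known for driving Ccl5 in T cells, changed by less. Its FPKM was 26.3, 19.5, 23.4, 24.5 and 31.1 in IPF and 40.2, 29.6, 33.7, 32.3 and 35.5 in sham. Again 4 IPF lungs lay below every sham lung and IPF replicate 5 fell within the sham range. The means of 24.9 ± 4.25 and 34.2 ± 3.95 (SD, n = 5) gave -0.47 (SE 0.12, limma adjusted p = 0.0415, exact permutation p = 0.0159), and without IPF replicate 5 the change was -0.55 (SE 0.1, limma adjusted p = 0.00984). Klf13 was called in 2 of the 10 single omissions, those of IPF replicate 5 and sham replicate 2, and the highest adjusted p among them was 0.0902. The gene overlaps Gm27252 on the opposite strand, which averaged 1.38 FPKM in IPF and 5.09 in sham, and whether reads were counted by strand is not given in the sources used here, so some reads may belong to either gene.

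Klf11 (ENSMUSG00000020653, chromosome 12: 24651274 to 24662789, plus strand), a TGF-β-inducible Sin3A-binding repressor, had the same layout at a smaller size and did not pass the test. Its FPKM was 8.62, 8.53, 8.69, 8.58 and 10.4 in IPF and 11.3, 9.98, 11.6, 9.71 and 10.6 in sham. IPF replicates 1 to 4 were nearly equal and lay below all sham lungs. The difference was -0.24 (SE 0.07, limma adjusted p = 0.0856, exact permutation p = 0.0238), and -0.30 without IPF replicate 5 (limma adjusted p = 0.0181). Klf11 was called in no other single omission, where the limma adjusted p reached 0.185.

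**Figure D2:**
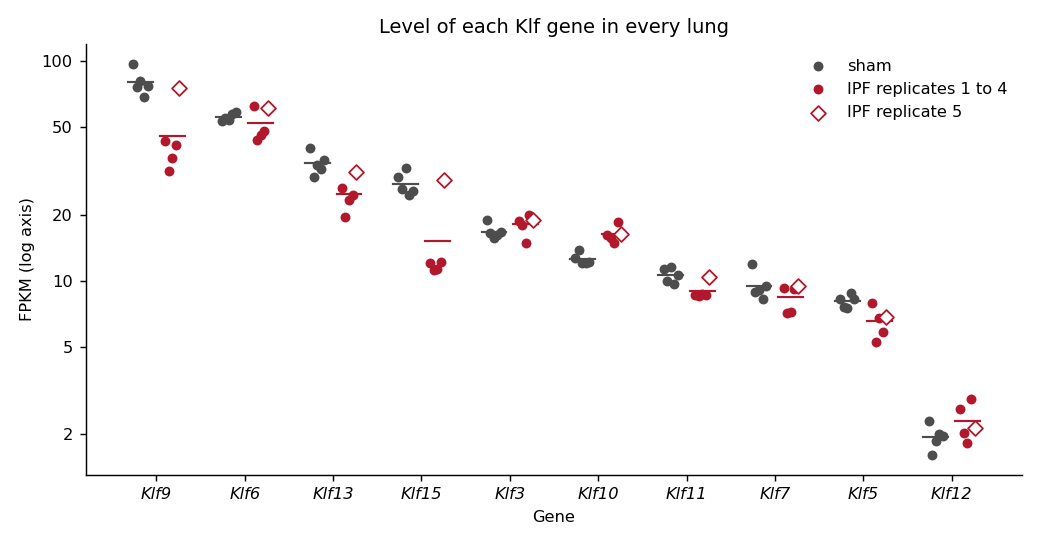
The FPKM of each Klf gene (log axis) is plotted for the 5 sham lungs (grey circles), IPF replicates 1 to 4 (red circles) and IPF replicate 5 (open diamonds), with a bar at each group mean of 5 lungs and genes ordered by their sham mean. For Klf9, Klf15, Klf13 and Klf11 the 4 red circles lie below all grey circles and the diamond lies among the grey ones, and for Klf10 all IPF values lie above all sham values.

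For these 4 genes, the position of IPF replicate 5 was expressed on the log2 scale between the mean of the other IPF lungs (0%) and the sham mean (100%). It was 93.4% for Klf9, 104.9% for Klf15, 76.0% for Klf13 and 89.8% for Klf11, and all 4 values were within the sham range. The 4 were picked for having IPF replicates 1 to 4 below every sham lung, a pattern shared by 1057 of the tested genes, for which the median position was 60.0%, with 384 within the sham range and 107 above it (46.5% together). Among 18 genes known as glucocorticoid targets 12 had the pattern, with a median of 91.3%, 5 within the sham range and 1 above it, 6 of 12 in all and close to the share over all such genes. Among the clock genes 12 had it, with a median of 48.6% and 0 in the sham range. Per1 is in both of these lists.

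Of the 18 glucocorticoid targets, 10 were called lower in IPF, where 2.14% of all tested genes were, 1 was called higher and 7 were not called, with a median log2 fold change of -0.78. Fkbp5, which encodes a chaperone of the glucocorticoid receptor, had 1.61 to 2.08 FPKM in IPF replicates 1 to 4, 9.11 in IPF replicate 5 and 13.7 to 19.3 in sham (-2.60, limma adjusted p = 0.00373). Tsc22d3, which encodes the glucocorticoid-induced leucine zipper, had 53.5 to 78.2 FPKM in IPF replicates 1 to 4, 156 in IPF replicate 5 and 148 to 182 in sham (-1.04, limma adjusted p = 0.0247). Both lay lowest in IPF replicates 1 to 4. Ddit4, which encodes an inhibitor of mTORC1 signalling, also fell (-1.14, limma adjusted p = 0.000432), and IPF replicate 5 lay near the other IPF lungs, at 14.9% of the way to sham. The gene called higher, Cdkn1a, is also in the list of Klf targets. Dbp and Arntl of the clock list changed by more than any of the 10 Klf genes. Dbp, an output gene of the clock, averaged 2.26 ± 0.707 FPKM in IPF and 26.4 ± 2.61 in sham (SD, n = 5), and Arntl, which encodes Bmal1, averaged 5.84 ± 1.5 in IPF and 0.366 ± 0.0633 in sham (limma adjusted p = 4.99e-07 and 2.58e-06). The part of glucocorticoid level, the hour of collection or sex in the Klf differences was not tested.

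**Figure D3:**
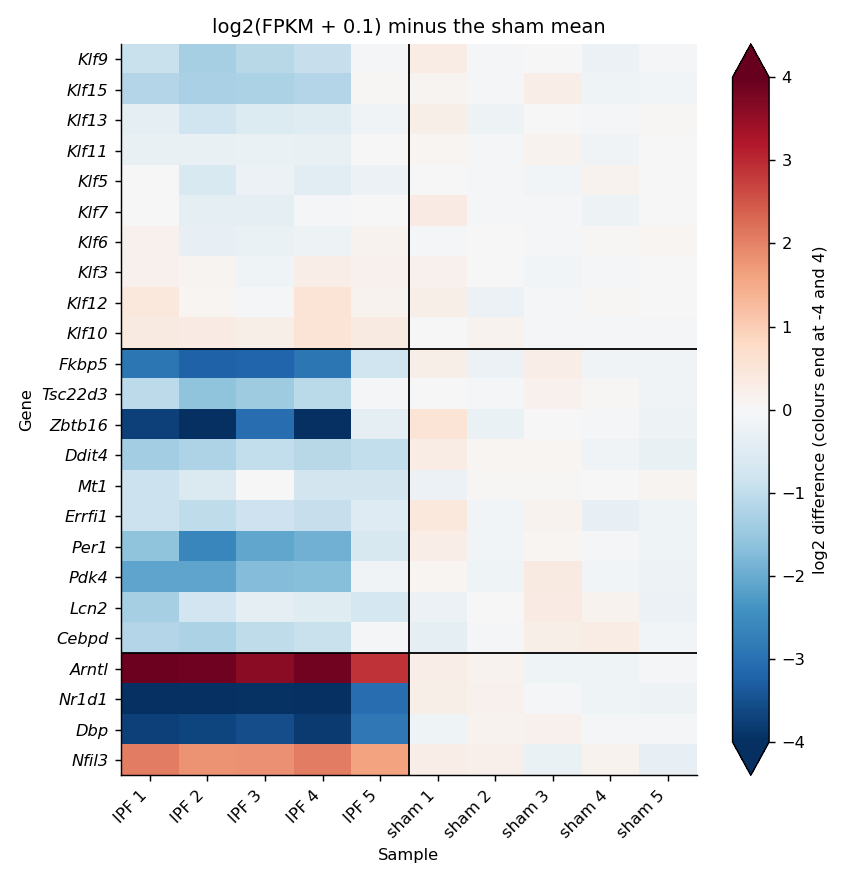
The colour gives each library's log2(FPKM + 0.1) minus the mean of the 5 sham libraries, for the 10 Klf genes (top), the 10 glucocorticoid targets called lower (middle) and the 4 clock genes with the smallest adjusted p (bottom), with the scale ending at -4 and 4. In IPF replicate 5, Klf9 and Klf15 are at -0.07 and 0.06, the glucocorticoid targets run from -1.0 (Ddit4) to -0.06 (Tsc22d3), and the clock genes are at 2.88 (Arntl), -3.04 (Nr1d1), -2.87 (Dbp) and 1.61 (Nfil3).

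Klf10 (ENSMUSG00000037465, chromosome 15: 38291463 to 38300706, minus strand), a TGF-β-inducible repressor closely related to Klf11, was the member that rose. Its FPKM was 16.2, 15.7, 14.9, 18.4 and 16.3 in IPF and 12.7, 13.8, 12.1, 12.1 and 12.2 in sham. Every IPF lung, replicate 5 included, was above every sham lung, a separation in this direction that 4.52% of all tested genes had. The means were 16.3 ± 1.29 and 12.6 ± 0.732 (SD, n = 5), a log2 fold change of 0.37 (95% confidence interval 0.22 to 0.51, SE 0.07, limma adjusted p = 0.00821), and the exact permutation p of 0.00794 is the smallest that 5 against 5 samples can give. Klf10 was called in all 10 single omissions, with limma adjusted p from 0.00946 to 0.0261.

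The ratio of 2 related genes within a library does not depend on how libraries are scaled, and 4 pairs were compared. The log2 ratio of Klf10 to Klf11 was 0.85 ± 0.17 in IPF and 0.24 ± 0.15 in sham (SD, n = 5), with no overlap between groups. The difference of 0.61 had an exact permutation p of 0.00794, or 0.0317 adjusted over the 4 pairs. The log2 ratio of Klf9 to Klf13 was 0.82 ± 0.26 in IPF and 1.22 ± 0.12 in sham, a difference of -0.40 that did not pass after adjustment (exact permutation p = 0.0397, adjusted 0.0794). In IPF replicate 5 it was 1.28, among the sham values of 1.08 to 1.36, and without that library the difference was -0.52 (exact permutation, adjusted p = 0.0159). The ratio of the CtBP-binding pair Klf3 and Klf12 differed by -0.11 (adjusted exact p = 0.392) and that of Klf6 and Klf7 by 0.06 (unadjusted exact p = 0.611).

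**Figure D4:**
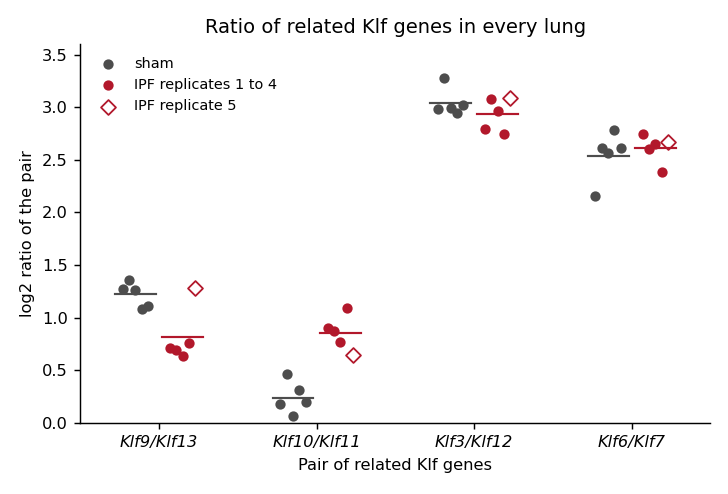
The log2 ratio of 4 pairs of related Klf genes is plotted for each of 5 sham lungs (grey), IPF replicates 1 to 4 (red) and IPF replicate 5 (open diamond), with a bar at each group mean. The ratio of Klf10 to Klf11 is 0.64 to 1.09 in IPF and 0.06 to 0.46 in sham, and for Klf9 to Klf13 the diamond at 1.28 lies with the sham lungs.

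The activators did not pass the test. Klf5 (ENSMUSG00000005148, chromosome 14: 99298691 to 99315036, plus strand), which acts in the maturation of lung epithelium, had 7.9, 5.29, 6.8, 5.82 and 6.85 FPKM in IPF and 8.26, 7.59, 7.5, 8.84 and 8.23 in sham. Only IPF replicate 1 overlapped the sham lungs. The difference was -0.31 (95% confidence interval -0.54 to -0.09, limma adjusted p = 0.106, exact permutation p = 0.0238), and without IPF replicate 1 it was -0.38 and called (limma adjusted p = 0.0473). Klf5 was called in no other single omission, where the limma adjusted p reached 0.224.

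Klf6 (ENSMUSG00000000078, chromosome 13: 5861482 to 5870394, plus strand), an early gene of tissue injury, had IPF values on both sides of the sham values. The IPF values were 62.5, 43.8, 45.9, 47.8 and 60.7 FPKM, and the sham values were 53.4, 54.7, 54.0, 57.2 and 58.3. Of the IPF lungs, 3 lay below all sham lungs and 2 above them all, and the SD on the log2 scale was 0.24 in IPF and 0.055 in sham, a difference in spread that was not tested. The mean difference was -0.11 (95% confidence interval -0.33 to 0.12, limma adjusted p = 0.615). Klf7 (ENSMUSG00000025959, chromosome 1: 64029447 to 64122282, minus strand), known from neurons, averaged 8.44 ± 1.17 FPKM in IPF and 9.51 ± 1.41 in sham (SD, n = 5), and the interval of its difference ran from -0.43 to 0.08 (limma adjusted p = 0.463).

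The CtBP-binding repressors had positive differences that did not pass the test. Klf3 (ENSMUSG00000029178, chromosome 5: 64803388 to 64832901, plus strand), which restrains B cell and adipocyte genes, averaged 18.1 ± 1.93 FPKM in IPF and 16.7 ± 1.24 in sham (SD, n = 5), with an interval of the log2 difference from -0.07 to 0.29 (limma adjusted p = 0.519). Klf12 (ENSMUSG00000072294, chromosome 14: 99870632 to 100284679, minus strand), a repressor of the gene for AP-2α, was the scarcest member, with 1.82 to 2.91 FPKM in IPF and 1.61 to 2.3 in sham. Its 202 to 370 reads per library gave an interval from -0.09 to 0.52 (limma adjusted p = 0.438). For both genes the groups overlapped, and changes of the size seen for Klf10 lie inside the interval of Klf12 and outside that of Klf3.

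The order of levels differed between the groups at its top and in the place of Klf15. FPKM is scaled by gene length, so this order depends on the lengths used, such as 11243 bases for Klf3 and 2791 for Klf15. These lengths were not checked. In sham lungs Klf9 was the most abundant of the 10, at 79.8 FPKM, followed by Klf6 (55.5), Klf13 (34.2), Klf15 (27.6), Klf3 (16.7), Klf10 (12.6), Klf11 (10.6), Klf7 (9.51), Klf5 (8.08) and Klf12 (1.95). Of neighbours in this order, Klf13 and Klf15, Klf11 and Klf7, and Klf7 and Klf5 overlapped between lungs. In IPF lungs the order was Klf6 (52.1), Klf9 (45.6), Klf13 (24.9), Klf3 (18.1), Klf10 (16.3), Klf15 (15.1), Klf11 (8.96), Klf7 (8.44), Klf5 (6.53) and Klf12 (2.3), and the only neighbours without overlap were Klf9 and Klf13, Klf15 and Klf11, and Klf5 and Klf12. Klf9 exceeded Klf6 in 5 of 5 sham lungs and in 1 of 5 IPF lungs, replicate 5. Klf15 stood above Klf3 without overlap in sham, and its mean was below those of Klf3 and Klf10 in IPF.

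Summed over the 10 genes, Klf mRNA was 207, 163, 171, 191 and 260 FPKM in IPF and 285, 245, 259, 239 and 255 in sham. IPF replicates 1 to 4 were again below all sham lungs. Klf9 made up 22.4 ± 3.8% of this sum in IPF and 31.0 ± 2.0% in sham, Klf15 7.35 ± 2.08% and 10.8 ± 1.05%, and Klf6 26.5 ± 2.53% and 21.7 ± 2.02% (SD, n = 5). These shares follow from the levels above and were given no test.

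No other Klf gene, Sp gene or cofactor gene that could be tested was called. The shear-responsive genes averaged 125 ± 17.4 FPKM in IPF and 138 ± 11.7 in sham for Klf2 and 60.6 ± 15.6 and 66.6 ± 6.94 for Klf4 (SD, n = 5, limma adjusted p = 0.444 and 0.615). Of 7 other Klf genes 5 could be tested, and 0 were called by limma or by voom, 1 having an unadjusted p under 0.05. Of 9 Sp genes, the nearest relatives of the family, 6 could be tested, and 0 were called by either fit or had an unadjusted p under 0.05. The same held for 16 corepressor and coactivator genes, with 0 called and a median log2 fold change of 0.0.

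Of 20 genes known as targets of Klf factors, 18 could be tested, with 1 called lower, 1 called higher and a median of -0.05. These 2 of 18 stand against 5.85% of all tested genes called in either direction. Plat, which encodes tissue plasminogen activator, averaged 7.89 ± 0.938 FPKM in IPF and 10.2 ± 1.05 in sham (SD, n = 5), a change of -0.36 (limma adjusted p = 0.0462, or 0.0632 without IPF replicate 5). Cdkn1a, which encodes the cell cycle inhibitor p21, averaged 25.6 ± 4.64 in IPF and 17.6 ± 1.41 in sham, a change of 0.53 (limma adjusted p = 0.018). Among the targets of Klf15 in amino acid breakdown, Prodh, Bcat2 and Gpt were not called. Ccl5, the gene that Klf13 is known to drive, averaged 11.2 ± 3.41 FPKM in IPF and 6.72 ± 2.53 in sham (SD, n = 5) and was not called (0.75, limma adjusted p = 0.123). Of 11 tested genes of the TGF-β response, 3 were called lower, where 2.14% of all genes were, and 1 higher, where 3.71% were, with a median of 0.0. The higher one, Id3, was not called without IPF replicate 5 (limma adjusted p = 0.071). Of 14 immediate early genes 0 were called lower and 3 higher, Ier2, Ier3 and Junb, against the same shares and with a median of 0.07. Without IPF replicate 5, Ier3 was called higher (limma adjusted p = 0.0441) and Ier2 and Junb were not (0.0545 and 0.0721), while Btg2 and Zfp36 were called lower (0.03 and 0.0108).

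Markers of lung cell types were counted beside the Klf genes. Of 4 endothelial markers 1 was called higher, Cldn5, and the summed FPKM was 921 to 1030 in IPF and 799 to 852 in sham. Cldn5 made most of that difference, with means of 451 and 309 FPKM, while Pecam1 averaged 172 and 178. Of 4 fibroblast markers Pdgfra was called higher, and of 4 leukocyte markers Ptprc and Cd79a were. No marker was called for alveolar type 1 and type 2 cells, smooth muscle, ciliated or secretory airway cells, neutrophils, red cells, heart, fat or skeletal muscle, and 3 thymus markers were too low to test. The 3 neutrophil markers had positive differences with a median log2 fold change of 1.37, and 2 of them had an unadjusted p under 0.05 in limma. The part of these cell types in the Klf differences was not tested.

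The genes whose pattern over the 10 libraries lay nearest to a Klf gene were sought for the 3 members with the smallest adjusted p, as the mean absolute gap between log2(FPKM + 0.1) values after each gene's own mean was subtracted, among 13445 genes averaging 1 FPKM or more. For Klf10 they were Parvg (gap 0.0516), Pip4k2a (0.0561) and Sp110 (0.0617), and for Klf9 they were Mcf2l (0.0626), Bcar3 (0.0899) and Csrnp1 (0.0955). For Klf15 they were Sema7a (0.0937), Mcf2l (0.104) and Slc10a6 (0.108). Klf15 ranked 9 in the list of Klf9 and Klf9 ranked 5 in that of Klf15, with a gap of 0.134, while Klf13 ranked 172 and 227. These gaps are a description. The genes near Klf9 and Klf15 share the contrast between the groups and the shift of IPF replicate 5. Those near Klf10 share the contrast without that shift. In IPF replicate 5, Parvg, Pip4k2a and Sp110 were at 4.76, 15.2 and 2.48 FPKM, near their IPF means of 4.93, 14.8 and 2.4.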

How the data were processed

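Whole-lung mRNA of 5 IPF and 5 sham samples was analysed. Per the methods, the authors used Fastp for trimming, HISAT2 for alignment and StringTie for quantification, while the submitters' processing notes name Bowtie. The values they deposited are FPKM (fragments scaled by gene length and library size). The methods name GRCm39, but the positions are those of GRCm38. The methods and the labels name different library kits, and the strand setting and annotation release are not given in the sources used here. Multiplied by gene length, nearly all values of a sample were whole multiples (within 0.05) of a common step, and these multiples were taken as reads.

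Genes averaging 0.1 FPKM or more were tested on log2(FPKM + 0.1) with limma 3.58.1 (R 4.3.3, trended empirical Bayes), comparing IPF with sham without a covariate and Benjamini-Hochberg adjustment. This scale understates changes of low genes. Exact permutation tests were two-sided and covered all assignments of the samples in the test, 252 for 5 against 5. The Klf genes and the 23 other lists were chosen with earlier results of these data known. All 10 Klf genes were named, from other lists up to 4 called genes with the smallest adjusted p, and the defining genes of the sex, clock, glucocorticoid and cell type lists beside results. Prodh, Bcat2, Gpt, Ccl5, Btg2 and Zfp36 were named after their values were seen. The values of 1 list gene are left out and not reported here. Tables and figures were made in Python 3.11.15 with pandas 2.3.3, numpy 2.4.6, scipy 1.17.1 and matplotlib 3.10.9. The fit was run on simulated counts with a fixed dispersion and no outlying library, so that run does not cover a library such as IPF replicate 5. Alternatives were pseudocounts of 1 and 0.01, other filters, scalings and variance models, array weights, voom on recovered reads, the replicate number as a block and leaving out each sample.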

Additional observations from a re-analysis of the deposited data

Results flagged for a closer look

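In 28 groups of 5 values (10 genes and 4 ratios in each group), 4 had a highest or lowest sample that stood far from the others by Dixon's criterion, which chance alone gives in about 1 of 20. IPF replicate 5 stood apart for Klf15, at 28.6 FPKM against 11.2 to 12.2 in the other IPF lungs, and for Klf11, at 10.4 against 8.53 to 8.69. It also stood apart for the log2 ratio of Klf9 to Klf13, at 1.28 against 0.634 to 0.761. Sham replicate 2 stood apart for the log2 ratio of Klf3 to Klf12, at 3.28 against 2.94 to 3.02. What sets these samples apart was not tested.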

How the results depend on the processing

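Klf10 was called higher in all 21 alternatives. The lower calls were less stable: against 3 members called lower with all libraries, 1 was called with no filter on low values and 0 without the variance trend (5 with an unadjusted p under 0.05, and 3 by voom), where 1.06% and 1.77% of all genes were called lower, against 2.14% in the reported fit, and leaving out 1 sample gave 0 to 4. The 0 arose without IPF replicate 2, 3 or 4 or sham replicate 1, 3 or 5, the 1 without IPF replicate 1 (Klf5), sham replicate 2 (Klf13) or sham replicate 4 (Klf9), and the 4 without IPF replicate 5. With all libraries, array weights also gave 4, Klf11 being added (limma adjusted p = 0.0444), where 3.24% of all genes were called lower. Past the stricter limits there were 0 with all libraries, 1 with array weights (1.44% of all genes in either direction), 1 without IPF replicate 5 and sham replicate 1 together (chosen after seeing the data, 1.3% of all genes), and 0 to 2 on leaving out 1 sample, the 2 being Klf9 and Klf15 without IPF replicate 5. The cause of these shifts was not tested. The log2 ratio of Klf6 to Klf7 differed between groups by 0.06, and by -0.03 (without sham replicate 1) to 0.12 (without IPF replicate 4) on leaving out 1 sample. Of 258 values of single genes and ratios under the alternatives, 221 kept their direction and side of the threshold, 31 lost the threshold, 5 gained it and 1 reversed, the ratio just given.

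With the replicate number as a block, 2 members were called lower, Klf9 and Klf13, against 1.88% of all genes, and 1 was called higher. In that fit 1045 of 20448 genes were called in either direction, and Klf15 had a limma adjusted p of 0.0602. The deviations of same-numbered samples from their group means had correlations across genes from -0.0204 to 0.0953. Of the 5 IPF samples, 3 correlated best with the sham sample of their own number. Whether samples of the same number form pairs was not tested.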
